A study of Mus musculus with 3 samples.

Results

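The genes described here encode the beta subunits and FXYD regulators of the sodium-potassium pump: Atp1b1, Atp1b2, Atp1b3, Fxyd1, Fxyd5 and Fxyd6. They were taken by gene symbol, 6 of the 18038 genes in the deposited count table. The samples were 3 wild-type hearts of the inbred strain C57BL/6J, collected on postnatal day 9 for RNA sequencing. They carried no treatment and formed the only group, so the comparisons are between genes within a heart and of the spread between hearts. The hearts are numbered after their replicate labels, and nothing states that they came from separate litters, so the spread behind each p-value may be partly technical.

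The sodium-potassium pump moves sodium out of the cell and potassium in, against both gradients, at the cost of ATP. In heart muscle it restores the gradients that each action potential runs down, and the sodium gradient in turn drives calcium out through the sodium-calcium exchanger. A working pump pairs a catalytic alpha subunit with a glycosylated beta subunit, which the alpha subunit needs to fold and to reach the cell surface, and often a small FXYD protein that tunes its activity. The genes of the alpha subunits are not analysed here.

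Library totals were 17766501, 18643408 and 18768094 counts in hearts 1, 2 and 3. Cardiomyocyte markers summed to 89099, 87356 and 89814 TPM (abundance per gene length, scaled so that each heart sums to 1000000), so the tissue label was met in every heart. Airway and lung markers summed to 2382 TPM in heart 1, against 1.34 and 8.60 TPM in hearts 2 and 3, and all 4 of those that could be tested varied between hearts (1.52% of all genes tested did); of the 12 listed, heart 1 had reads for each, while 6 lacked any read in heart 2 and 4 did so in heart 3. The sum of the epicardial and mesothelial markers was also highest in heart 1, at 218, 151 and 119 TPM, with 2 of 7 variable. Wt1 of that list went the other way, at 15.2, 16.9 and 17.6 TPM in hearts 1, 2 and 3. The nerve and glia, erythroid, smooth muscle and skeletal muscle lists held 1 variable gene each, of 7, 7, 6 and 6 tested. The cardiomyocyte, endothelial, fibroblast and leukocyte lists held 0, of 8, 8, 7 and 8. Smooth muscle markers summed to 710, 1274 and 1553 TPM in hearts 1, 2 and 3, lowest in heart 1. Erythroid markers summed to 13420, 14196 and 8558 TPM, lowest in heart 3. In whole hearts, fewer cells of a type and less RNA per cell cannot be told apart.

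All 6 genes were expressed at 1 CPM (counts scaled to 1000000 per library) or more in every heart, and Fxyd1, Atp1b1 and Atp1b3 each differed from the gene next below them, while the 3 lowest were not distinguished from each other with the gene lengths implied by count and FPKM. Fxyd1 was the highest at 1018 ± 51.0 TPM (SD, n = 3 throughout). Atp1b1 followed at 361 ± 25.6 TPM, then Atp1b3 at 121 ± 6.61 TPM. Atp1b2, Fxyd6 and Fxyd5 lay together at 60.7 ± 6.81, 59.1 ± 2.18 and 58.2 ± 1.92 TPM. By mean TPM, Fxyd1 ranked 133rd and Atp1b1 421st of the 18038 genes, Atp1b3 ranked 1215th, and the lowest, Fxyd5, ranked 2613th.

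**Figure D1:**
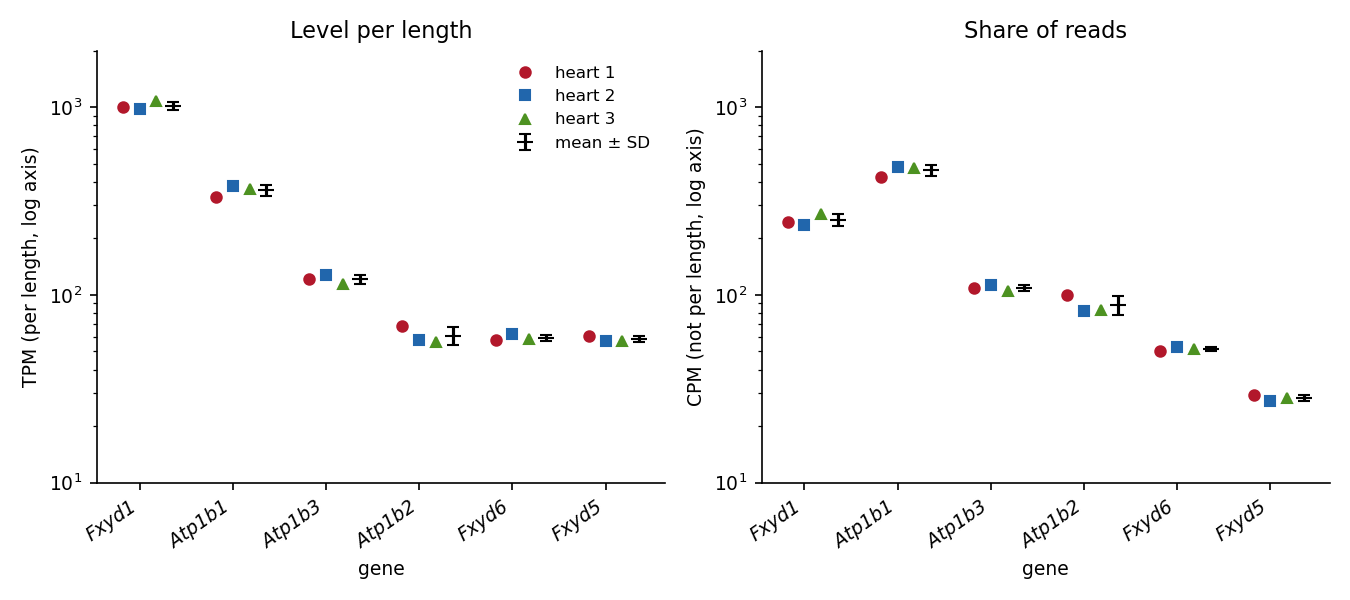
Level of each gene in each heart, as TPM (left, scaled by gene length) and as CPM (right, not scaled by length), both on log axes; coloured symbols are single hearts, and the black bar with its whiskers is the mean ± SD over 3 hearts. Fxyd1 is above Atp1b1 in TPM (1018 against 361) but below it in CPM (250 against 460), and Atp1b2, Fxyd6 and Fxyd5 lie side by side in TPM but apart in CPM.

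Atp1b1 encodes the beta subunit known as the main form of heart and kidney. Its gene (Entrez ID 11931) is on the minus strand of chromosome 1 (GRCm38, 164437099 to 164459117). It had 333, 383 and 367 TPM in hearts 1, 2 and 3, from 7556, 8936 and 8931 counts, lowest in heart 1. Atp1b3, a broadly expressed form (ID 11933, chromosome 9, 96332662 to 96367438), had 122, 128 and 114 TPM from 1940, 2094 and 1962 counts. Its lowest value was in heart 3. Atp1b2, also called the adhesion molecule on glia for its role in brain (ID 11932, chromosome 11, 69596827 to 69605960, minus strand), had 68.5, 57.5 and 56.1 TPM from 1781, 1536 and 1562 counts, and was highest in heart 1. No heart of one beta gene overlapped any heart of another.

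Each gene was set against the others within the same heart, in a fit of all 13312 other genes with a mean CPM of at least 1. Atp1b1 exceeded Atp1b2 by a log2 ratio of 2.57 (95% interval 2.27 to 2.88; SE 0.145; adjusted p = 8.23e-13 in edgeR), or 5.95-fold, in 3 of 3 hearts. The ratio of TPM was 4.85 in heart 1 against 6.66 and 6.53 in hearts 2 and 3. Atp1b1 exceeded Atp1b3 by 1.57 (95% interval 1.41 to 1.74; SE 0.0704; adjusted p = 9.68e-08 in edgeR), or 2.97-fold, again in 3 of 3 hearts. Of all genes tested, 2.79% were above Atp1b1 and 96.5% below it (1.60% above without a length correction). Atp1b3 exceeded Atp1b2 by 1.00 (95% interval 0.75 to 1.25; SE 0.119; adjusted p = 1.18e-07 in edgeR), with TPM ratios of 1.78, 2.22 and 2.04. Above Atp1b3 were 7.81% of genes (1040 genes, and 1600 without a length correction) and below it 89.6%, and above Atp1b2 were 15.7% and below it 77.5%. Without a length correction the step of Atp1b3 over Atp1b2 shrank to a log2 ratio of 0.30 (adjusted p = 0.0232 in edgeR). The lengths implied by count and FPKM were 1760 bases for Atp1b3 and 2864 for Atp1b2.

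As shares of the summed beta subunit transcripts, Atp1b1 held 63.6%, 67.4% and 68.2% in hearts 1, 2 and 3, Atp1b3 23.3%, 22.5% and 21.3%, and Atp1b2 13.1%, 10.1% and 10.4%. The means were 66.4% ± 2.46 for Atp1b1, 22.4% ± 0.990 for Atp1b3 and 11.2% ± 1.64 for Atp1b2. The order was the same in every heart. The lower share of Atp1b1 and the higher share of Atp1b2 in heart 1 stood in the heart with the airway transcripts, and nerve and glia markers, the class in which Atp1b2 is best known, summed to 47.4 TPM there, against 19.3 and 34.2 TPM in hearts 2 and 3, with 0 of 10 at 0 counts in any heart. The part of either in the shares was not tested.

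**Figure D2:**
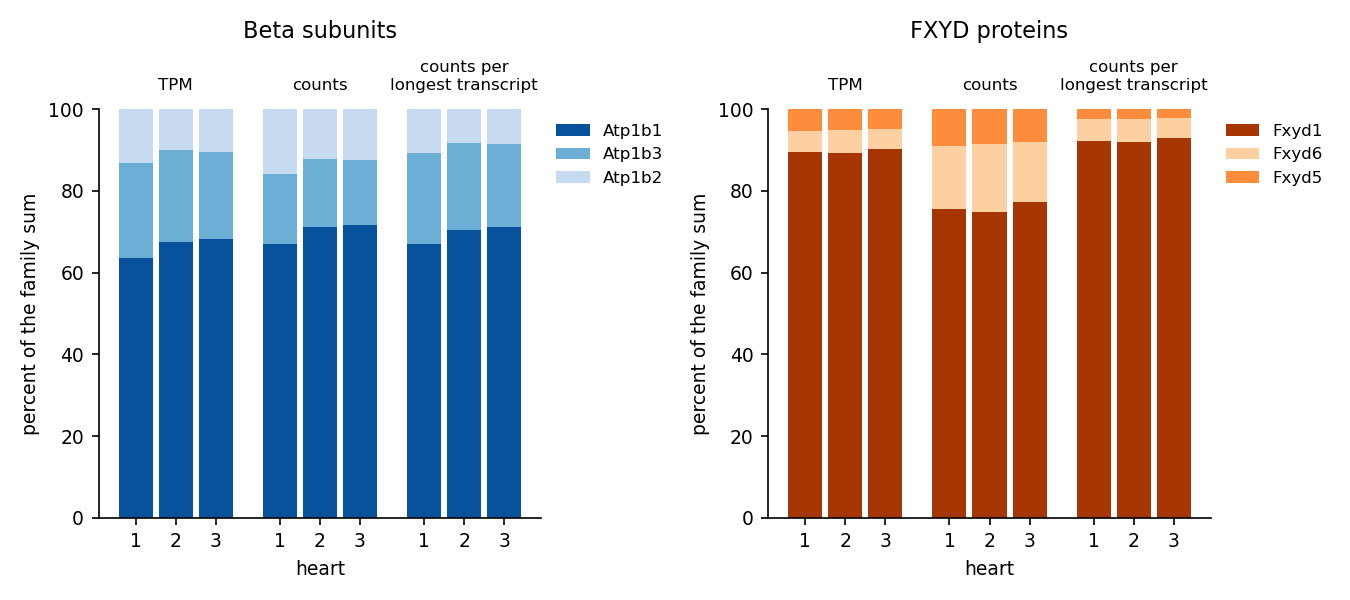
Share of each gene in the sum of its family (percent) in hearts 1 to 3, for the beta subunits (left) and the FXYD proteins (right), from TPM, from counts, and from counts per base of the longest annotated transcript. Atp1b1 holds 63.6% to 68.2% of the beta sum and Fxyd1 89.2% to 90.3% of the FXYD sum by TPM, and Fxyd1 falls to 74.8% to 77.3% by counts.

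The FXYD proteins are single-span membrane proteins named after a signature of phenylalanine, any residue, tyrosine and aspartate, which lies just outside the membrane. The coding sequence around that signature is shown for the 3 genes. Sequences are GENCODE M21 coding sequence on GRCm38, sense strand, with the 4 signature codons in capitals; each coding sequence held 1 match.
Fxyd1: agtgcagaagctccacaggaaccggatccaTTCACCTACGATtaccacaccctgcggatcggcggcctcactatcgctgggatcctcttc
Fxyd5: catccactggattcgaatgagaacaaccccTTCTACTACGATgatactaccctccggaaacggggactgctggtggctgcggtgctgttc
Fxyd6: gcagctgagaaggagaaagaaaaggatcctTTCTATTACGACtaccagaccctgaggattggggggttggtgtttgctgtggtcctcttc
The signature began at coding base 85 in Fxyd1 and Fxyd6, whose coding sequences had 276 and 282 bases, and at base 403 of 534 in Fxyd5, which encodes the longer extracellular part that sets this member apart. A proline codon preceded it in each gene (CCA, CCC and CCT). The longest run of identical bases between any pair of the 3 coding sequences was 11, and between any pair of beta subunits 19.

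Fxyd1 encodes phospholemman, the FXYD protein of the heart, which restrains the pump until kinases of the adrenergic pathway phosphorylate its tail. Its gene (ID 56188) is on the minus strand of chromosome 7. The deposited span is 31042615 to 31055874, whereas GENCODE M21 gives 31051678 to 31057199. It had 1001, 978 and 1076 TPM from 4341, 4400 and 5084 counts, highest in heart 3. Fxyd5, or dysadherin, which is known from epithelia and tumours for its effect on cell adhesion (ID 18301, chromosome 7, 31032723 to 31042331), had 60.4, 57.1 and 57.1 TPM from 519, 504 and 528 counts. Fxyd6, or phosphohippolin, known mainly from brain (ID 59095, chromosome 9, 45370185 to 45396463, plus strand), had 57.5, 61.6 and 58.1 TPM from 889, 979 and 965 counts. Every heart of Fxyd1 stood far above every heart of the other 2 genes, whose ranges overlapped in TPM. By counts the ranges of Fxyd5 and Fxyd6 did not overlap, at 504 to 528 and 889 to 979.

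Fxyd1 exceeded Fxyd5 by a log2 ratio of 4.13 (95% interval 3.95 to 4.30; SE 0.0731; adjusted p = 5.59e-08 in edgeR), or 17.5-fold, and Fxyd6 by 4.11 (95% interval 3.94 to 4.28; SE 0.0700; adjusted p = 4.65e-08 in edgeR), or 17.2-fold, both in 3 of 3 hearts. These sizes moved with the lengths: Fxyd1 exceeded Fxyd5 8.89-fold without a length correction and 39.9-fold with longest transcripts, and Fxyd6 4.87-fold and 17.2-fold. Of all genes tested, 17.2% were above Fxyd5 and 77.8% below it, and 17.1% were above Fxyd6 and 78.3% below it. The share above Fxyd5 was 44.8% without a length correction and 40.2% with longest transcripts, and that above Fxyd6 was 27.5% without a length correction. Fxyd5 and Fxyd6 were not distinguished (log2 ratio -0.02, 95% interval -0.18 to 0.14, adjusted p = 0.764 in edgeR). That result rests on the gene lengths: Fxyd5 was below Fxyd6 by -0.87 without a length correction (adjusted p = 1.16e-05 in edgeR) and by -1.21 with longest transcripts (adjusted p = 1.64e-06 in edgeR). By TPM Fxyd1 held 89.5%, 89.2% and 90.3% of the FXYD sum in hearts 1, 2 and 3, a mean of 89.7% ± 0.594, with Fxyd6 at 5.21% ± 0.371 and Fxyd5 at 5.13% ± 0.308.

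Atp1b2 was compared with its neighbours in level, Fxyd5 and Fxyd6, after the values were seen. It was not distinguished from Fxyd5 (log2 ratio 0.06, 95% interval -0.11 to 0.22, adjusted p = 0.454 in edgeR) or from Fxyd6 (0.03, 95% interval -0.16 to 0.23, adjusted p = 0.691 in edgeR). Without a length correction Atp1b2 exceeded both, by 1.65 (adjusted p = 8.71e-07 in edgeR) and 0.78 (adjusted p = 6.78e-05 in edgeR). With longest transcripts it exceeded Fxyd5 by 1.33 (adjusted p = 1.84e-06 in edgeR).

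Fxyd1 and Atp1b1, the leading member of each family, were compared directly. Fxyd1 had 3.01, 2.56 and 2.94 times the TPM of Atp1b1 in hearts 1, 2 and 3, a log2 ratio of 1.50 (95% interval 1.31 to 1.68; SE 0.0828; adjusted p = 1.40e-08 in edgeR). The order turned round without a length correction, where Fxyd1 was below Atp1b1 by -0.88 (adjusted p = 1.16e-06 in edgeR), with 0.575, 0.492 and 0.569 counts of Fxyd1 per count of Atp1b1. The lengths implied by count and FPKM were 482 bases for Fxyd1 and 2505 for Atp1b1. Summed over each family, the FXYD genes had 1136 ± 49.2 TPM and the beta genes 543 ± 23.0 TPM, whereas by counts the FXYD sum was 6070 ± 444 and the beta sum 12099 ± 715.

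**Figure D3:**
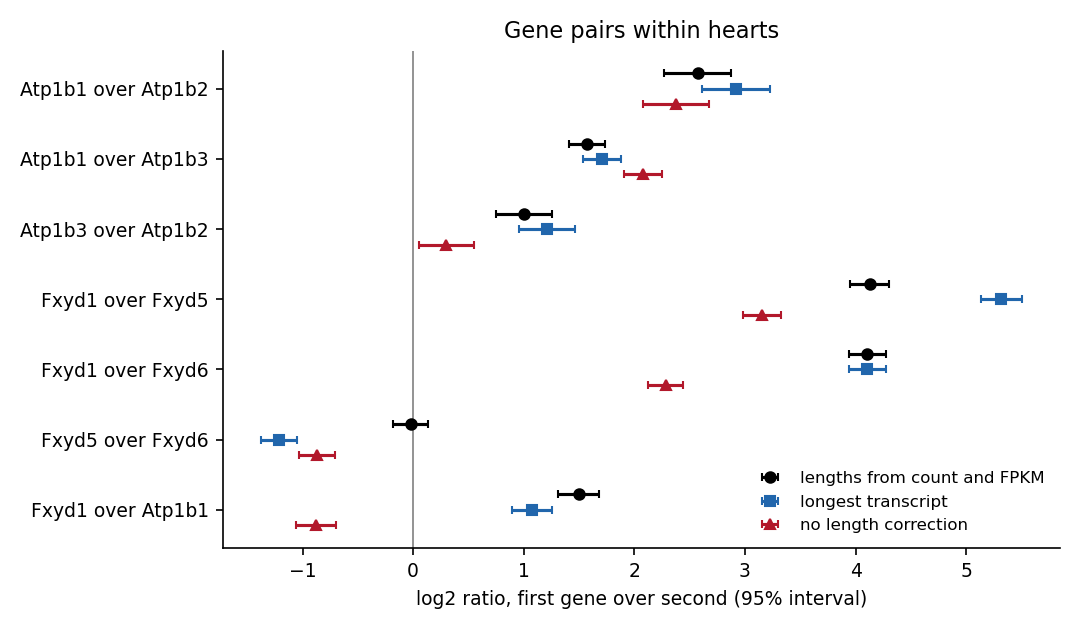
Log2 ratio of the first gene over the second within hearts, with 95% intervals from the edgeR fit of 3 hearts, for lengths implied by count and FPKM (black circles), longest annotated transcripts (blue squares) and no length correction (red triangles). Fxyd1 over Atp1b1 is 1.50, 1.07 and -0.88 in that order, Fxyd5 over Fxyd6 crosses 0 only with the implied lengths, and the other 5 pairs stay above 0.

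Part of the reads of Atp1b1 and Atp1b3 could be shared with other genes. Counts of Atp1b1 were not whole numbers in all 3 hearts, and those of Atp1b3 in 1 heart, while the other 4 genes had whole counts throughout. Of the 50-base runs in the Atp1b1 transcript, 18.9% also stood in transcripts of Nme7, the gene that overlaps its end on the opposite strand, and 11.7% of those of Atp1b3 stood in transcripts of Gm1848. No such run was shared by Atp1b2, Fxyd1, Fxyd5 or Fxyd6. Nme7 had 126, 126 and 132 counts, few beside those of Atp1b1. The table's span of Fxyd1 covers most of Fxyd7 on the same strand, which had 39, 40 and 33 counts. The GENCODE M21 span of Fxyd1 starts at 31051678, past the table's end of Fxyd7 (31051454). The table also places Atp1b3 and Fxyd5 on the plus strand, whereas GENCODE M21 places both on the minus strand.

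None of the 6 genes passed the test of variation between hearts. It asks whether a gene's spread exceeds the trend of spread fitted over genes of like abundance. In the edgeR goodness of fit test 202 of 13313 genes were variable, 1.52%, and 0 of the 6 were, with unadjusted p from 0.493 for Atp1b2 to 0.942 for Fxyd5 (696 genes, 5.23%, had an unadjusted p under 0.05). The SD of CPM was 11.4% of the mean for Atp1b2, 7.27% for Fxyd1 and 6.58% for Atp1b1, and 3.87%, 3.60% and 2.42% for Fxyd5, Atp1b3 and Fxyd6. Among genes within 2-fold of each member's CPM the median was 6.49% to 7.51%. The fitted trend was higher, from 10.7% for Fxyd1 to 12.4% for Fxyd5 beyond counting error. Atp1b2, at 11.4%, was above the median of its like genes (6.68%) but near its trend value (also 11.4%). A gene that did not pass the test therefore need not have a typical spread. Atp1b2 had the widest spread of the 6 in CPM and in TPM, with its highest value in heart 1. The narrowest was that of Fxyd6 in CPM and that of Fxyd5 in TPM (3.31% of the mean, against 3.69% for Fxyd6).

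**Figure D4:**
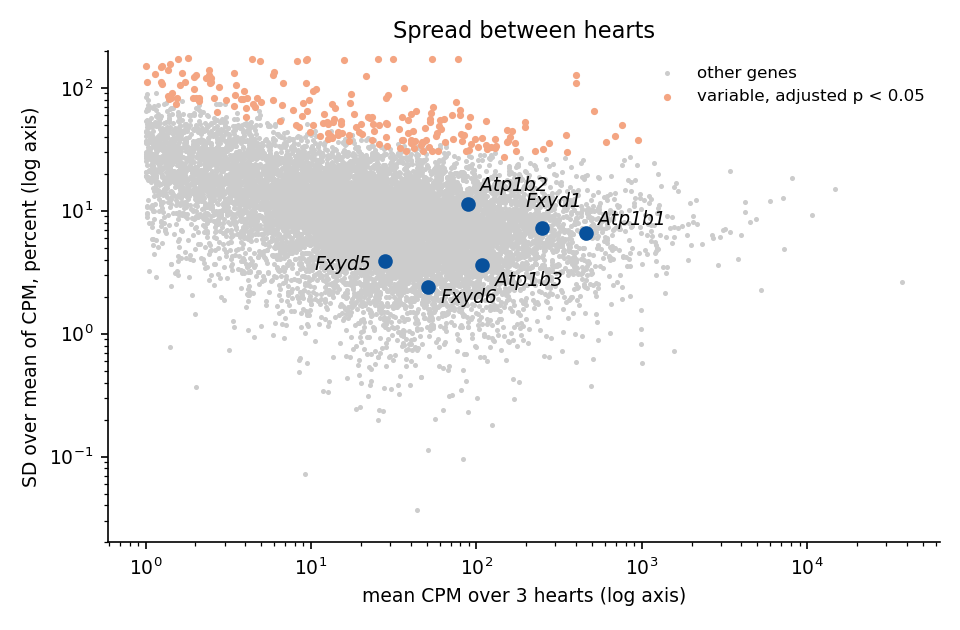
SD over mean of CPM (percent, log axis) against mean CPM over 3 hearts (log axis) for each tested gene; blue points are the 6 pump genes, orange points the 202 genes that varied between hearts, grey points the rest. The pump genes lie between 2.42% and 11.4%, below the orange points.

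Other beta and FXYD genes had at most 40 counts in any heart. Atp1b4, a muscle form that is not a pump subunit in placental mammals, had 3, 10 and 7 counts in hearts 1, 2 and 3. Fxyd2, the gamma subunit of the kidney pump, had 15, 16 and 10 counts. Fxyd3, a form of epithelia, had 37.0, 17.0 and 13.6 counts, most in heart 1, where the airway markers were also highest; their part in this was not tested, and Fxyd3 did not pass the test of variation (adjusted p = 1.00 in edgeR, unadjusted p = 0.0701). Fxyd7, known from brain, had 7.33, 7.26 and 5.72 TPM. Fxyd4, of the kidney collecting duct, had 0 counts in every heart, which allows up to 3 counts per library, or 0.160 to 0.169 CPM. Only Fxyd3 and Fxyd7 reached the mean CPM of 1 needed for the test against Atp1b1, and both were below it. Of the proton-potassium pump genes, Atp4a had 0 counts in every heart, and Atp4b and Atp12a had 2 counts each in heart 1 and 0 in hearts 2 and 3.

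Lists of genes that work beside the pump were set against Atp1b1: partners and anchors, kinases and phosphatases of phospholemman with their regulators, and sodium channels, exchangers and related transporters. Of their 39 genes 36 could be tested, of which 3 were above Atp1b1, 32 below it and 1 not distinguished, with a median log2 ratio of -2.83 (-4.30 over all genes tested). Of all genes tested 2.79% were above Atp1b1 and 96.5% below it, so most genes of almost any list would be below. Without a length correction 3 were above (Bsg, Sptbn1 and Slc8a1), 29 below and 4 not distinguished, with a median of -2.06 (-4.09 over all genes tested). Among partners and anchors, 1 of 9 was above: Bsg, a glycoprotein that escorts transporters to the membrane, at 1628 ± 112 TPM. Sptbn1, a spectrin of the membrane skeleton, and Cav3, the muscle caveolin, were below at 252 ± 31.0 and 182 ± 9.00 TPM. Without a length correction Sptbn1 was above Atp1b1, by a log2 ratio of 1.44 (adjusted p = 1.23e-08 in edgeR).

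Among the 12 kinases, phosphatases and regulators, 2 were above Atp1b1 and 9 below. Hspb6, a small heat shock protein that is a kinase substrate in heart, exceeded Atp1b1 by a log2 ratio of 0.85 (652 ± 79.1 TPM), and Ppp1ca, a catalytic subunit of protein phosphatase 1, by 0.50 (508 ± 21.9 TPM). Both rest on the gene lengths: without a length correction Ppp1ca was below Atp1b1 by -0.48 (adjusted p = 0.000236 in edgeR), and Hspb6 had a log2 ratio of -0.17 (adjusted p = 0.0733 in edgeR). Prkaca, the catalytic subunit of protein kinase A that phosphorylates phospholemman, was the gene not distinguished (0.01, 95% interval -0.18 to 0.20, adjusted p = 0.921 in edgeR), at 362 ± 6.98 TPM. Of the 15 channel and transporter genes tested, 0 were above and 15 below, beside 96.5% of all genes tested. Slc9a3r2, a scaffold of sodium-proton exchangers, had 134 ± 13.9 TPM, and Slc4a3, an anion exchanger, had 84.5 ± 12.2 TPM. Slc8a1, the cardiac sodium-calcium exchanger, was named after its values were seen: it had 80.6, 103 and 65.6 TPM and was below Atp1b1 by -2.13. By counts it had 10903, 12886 and 10129, and without a length correction it was above Atp1b1 by 0.41 (adjusted p = 0.00135 in edgeR).

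The genes nearest to Atp1b1 in log2 TPM over the 3 hearts were Laptm4a, Npm1 and Cox17, within 0.05, 0.08 and 0.08 in every heart. Those nearest to Fxyd1 were Aes, Ndufv3 and Rpl26, within 0.04, 0.08 and 0.09. With 3 hearts this is likeness in level, and no correlation was computed.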

How the data were processed

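RNA of 3 hearts was sequenced from DNBSEQ libraries after Trizol extraction, per the labels. The deposited table gives read counts per gene and heart, made by the authors, and these were treated here like estimated counts (expected counts) because 87.5% to 87.6% of values per heart were within 0.005 of a whole number and the rest fractional. The authors' FPKM stand beside them in that deposited table. The submitters' processing notes name HISAT and GRCm38.p6; no source used here gives the counter, read length or strand use. One line without values was left out, and the authors' means were not used.

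TPM is the deposited FPKM rescaled to 1000000 per heart. Expected counts were rounded and tested in edgeR 4.0.16 (R 4.3.3, limma 3.58.1): each gene with a mean CPM of at least 1 was paired with a member in the same heart, with library size times gene length (implied by count and FPKM) as offset and the heart as a block, by the quasi-likelihood test, two-sided, Benjamini-Hochberg over all genes, threshold 0.05. All genes of such a fit share the member's own noise, so calls near a ratio of 0 are somewhat too frequent. The fit also pools variance over genes, so the size of a p-value does not measure replication over 3 hearts. Without heart 1, Atp1b1 over Atp1b3 had an SE of 0.0977 against 0.0704 with all hearts. Its adjusted p nevertheless fell from 9.68e-08 to 7.35e-56 in edgeR. Variation between hearts was tested by goodness of fit with trended dispersion after TMM scaling (factors 1.02, 0.998 and 0.986). Shares carry no test, since exact sign flips over 3 hearts give p = 0.25 at best. The scripts were tested on simulated data. Chi-square per degree of freedom between hearts was 14.6, 23.7 and 9.70, so each was counted as 1 sample. Alternatives covered lengths, block, filter, left-out hearts, scaling, dispersion and DESeq2 1.42.0.

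Members and lists were chosen with earlier results of these data known. Of 136 listed genes, in 14 lists, 2 had no match. Named are the members, the beta, FXYD and proton pump genes of the pump family list, the 3 highest genes by mean TPM of each list set against Atp1b1, and the 3 genes nearest in level to Atp1b1 and Fxyd1, apart from some genes that are not reported. Precision limits from counts of 0 cover counting error only.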

Additional observations from a re-analysis of the deposited data

How the results depend on the processing

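The 6 ratios past the threshold kept their direction and call under every alternative but one: Fxyd1 over Atp1b1 turned to -0.88 without a length correction. Fxyd5 over Fxyd6 became a call at -0.87 without a length correction and -1.21 with longest transcripts. Dropping the heart block, the abundance filter or single hearts, or using DESeq2, changed no call between members; with no replicate block Fxyd1 over Atp1b1 was 1.50 and Atp1b1 over Atp1b2 2.57. Without a length correction, a comparison chosen for the listed genes after seeing the data, Sptbn1, Slc8a1, Hspb6 and Ppp1ca over Atp1b1 turned to 1.44, 0.41, -0.17 and -0.48; with longest transcripts the 9 named genes kept their direction and call. Genes above Atp1b3, Fxyd5, Fxyd6 and Atp1b1 numbered 1600, 5968, 3655 and 213 without a length correction, against 1040, 2291, 2270 and 371, and 5285 were above Fxyd5 with longest transcripts. Without a length correction the shares of Atp1b1, Atp1b2 and Atp1b3 were 69.9%, 13.5% and 16.5%, and those of Fxyd1, Fxyd5 and Fxyd6 75.9%, 8.54% and 15.6%. With longest transcripts they were 69.5%, 9.24% and 21.3%, and 92.3% and 2.32% for Fxyd1 and Fxyd5. These shifts follow from the lengths, which differ between the genes. Variable genes numbered 93 to 138 with 1 heart left out (111 without heart 1 and 93 without heart 3), against 202, where the test held fewer samples, and none of the 6 pump genes was among them in any of these settings. Fxyd5, with 504 to 528 counts per heart, had the fewest counts of the 6 genes.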
